A study of Mus musculus with 2 samples.

Results

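The genes described here are those of oxidative phosphorylation, read from single immune cells taken from mouse melanomas. Members were chosen by symbol, with no threshold on a measured value. They were the subunit genes of complexes I, III, IV and V that begin with Ndufa, Ndufb, Ndufc, Ndufs, Ndufv, Uqcr, Atp5, Cox4i, Cox5, Cox6, Cox7 or Cox8, the complex II genes Sdha to Sdhd, cytochrome c (Cycs) and all genes of the mitochondrial genome, without pseudogenes marked -ps. The rule found 104 of the 17232 genes in the deposited table. Of these, 91 were encoded in the nucleus and 13 in the mitochondrial genome. The nuclear members comprised 36 genes of complex I, 4 of complex II, 8 of complex III, 17 of complex IV, 15 of complex V, Cycs, and 10 genes that the prefixes also catch and that encode assembly or accessory proteins (Ndufaf1 to Ndufaf7, Atp5s, Atp5sl and Cox7a2l). The mitochondrial members were 7 subunits of complex I, 1 of complex III, 3 of complex IV and 2 of complex V, and mitochondrial ribosomal RNAs are not among the genes analysed here.

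Oxidative phosphorylation makes most of the ATP of a resting cell. Complexes I and II pass electrons from NADH and succinate through ubiquinone to complex III, cytochrome c carries them to complex IV, which reduces oxygen, and the proton gradient built on the way drives the ATP synthase, complex V. The subunits come from separate genomes and are assembled in the inner mitochondrial membrane, so that nuclear transcription, mitochondrial transcription and assembly have to be matched. Among immune cells, resting and memory lymphocytes and alternatively activated macrophages are known to lean on this pathway, whereas inflammatory macrophages and effector T cells are known for high glycolysis.

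B16-OVA, a mouse melanoma line that expresses ovalbumin, was grown under the skin of female mice of 8 to 12 weeks, and live CD45.2+ cells were sorted from the tumours on day 14 for droplet sequencing of the 3' ends of transcripts. The study compared Maoa WT mice with Maoa KO mice, which are deficient in monoamine oxidase A, an enzyme that breaks down serotonin and other monoamines. The Maoa KO mice carry a hypomorphic allele in every cell of the body, had been made in the 129S background and were backcrossed to C57BL/6J, so the genotype is not restricted to immune cells. Each genotype was 1 library from 10 combined tumours with 10000 cells loaded, and the single animals cannot be told apart. There is thus no replicate, no test and no p-value below. Each value is given for the library labelled Maoa WT first and the library labelled Maoa KO second. Intervals are exact Poisson intervals for counts and shares of all UMIs and Clopper-Pearson intervals for other shares, at a level of 95%. They cover counting error only.

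The table held 2392 cells of the library labelled Maoa WT, with 28801253 unique molecular identifiers (UMIs, each standing for 1 captured transcript), and 2630 cells of the library labelled Maoa KO, with 23702018 UMIs. The median cell had 9887.5 and 6945.5 UMIs, and 13 cell barcodes occurred in both libraries. Maoa did not bear out the labels. It had 7 UMIs in the library labelled Maoa WT, or 0.243 per 1000000 UMIs of that library (CPM; interval 0.0977 to 0.501), and 15 UMIs in the library labelled Maoa KO, or 0.633 CPM (0.354 to 1.04). For this reason the libraries are called by their labels throughout and no direction is drawn from the genotype. Cells were clustered without the member genes. The classes named from their markers were T cells (900 and 852 cells), natural killer cells (NK; 187 and 268), tumour-associated macrophages and monocytes (TAM/Mono; 969 and 831), dendritic cells (DC; 164 and 343), plasmacytoid dendritic cells (pDC; 48 and 69) and B cells (7 and 25). A cluster of 117 and 242 cells led by Acp5, Klra7 and Cd160 stayed unnamed. T cell markers summed to 0.573% and 0.550% of the UMIs of the T cell class and to 0.0353% and 0.0224% of those of the TAM/Mono class. The macrophage markers summed to 0.931% and 1.0% in TAM/Mono and to 0.0269% and 0.0235% in T cells. In pDCs the pDC markers other than Cox6a2 summed to 1.25% and 1.21% and the macrophage markers to 0.0679% and 0.0737%, but the monocyte markers to 0.902% and 0.933%, above the 0.579% and 0.675% of TAM/Mono. Of the 16 monocyte markers Plac8 (0.561% and 0.589%) and Ly6c2 (0.312% and 0.313%) made up most of that sum, and Csf1r and Itgam were at 0.00102% or less. Melanoma markers summed to 109 and 181 CPM in the T cell class, most of it in 2 and 3 cells, and without those cells the share of nuclear members in T cells given next was 2.95% and 2.79%.

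The nuclear members were present at a similar share of the transcripts in every class, while the mitochondrially encoded members were higher in pDCs and in the few B cells than in the other classes. Nuclear members took 2.96% and 2.84% of all UMIs in T cells. They took 2.62% and 2.78% in TAM/Mono, 2.64% in DCs of both libraries, 2.59% in NK cells of both libraries, 2.81% and 2.83% in pDCs, and 2.33% and 2.25% in the few B cells. T cells and pDCs were therefore at the top in both libraries. The place of the pDCs rested on Cox6a2, described below, without which their share was 2.61% and 2.63%, and the order among NK cells, DCs and TAM/Mono was not the same in both libraries. The small difference between T cells and TAM/Mono in the library labelled Maoa KO turned under several other choices of cells, for example to a log2 ratio of 0.10 for TAM/Mono over T cells with each cell weighted equally. The mitochondrial members took 1.58% and 1.78% of the UMIs in T cells, 1.5% and 1.63% in NK cells, 1.44% and 1.56% in TAM/Mono and 1.38% and 1.51% in DCs, against 2.69% and 2.96% in pDCs. The B cells, with few cells, had 2.26% and 2.58%. The study had set a limit of 5% mitochondrial transcripts per cell, which all cells of the table met.

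**Figure D1:**
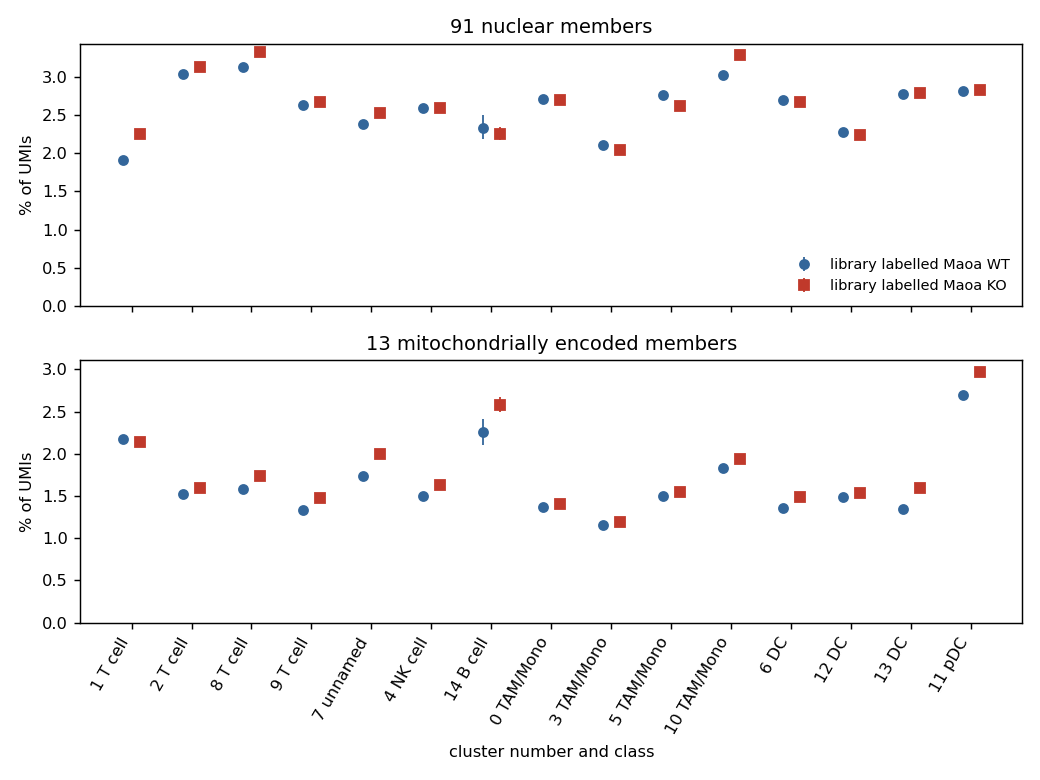
Share of all UMIs (percent, y axes from 0) taken by the 91 nuclear members (upper panel) and the 13 mitochondrially encoded members (lower panel). Each cluster is shown (x axis, cluster number and class) for both libraries, with exact Poisson intervals that are mostly smaller than the markers. Cluster 11, the pDCs, has the highest mitochondrial share (2.69% and 2.96%) with an ordinary nuclear share (2.81% and 2.83%).

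The complexes differed little in proportion across the classes. Nuclear complex I subunits summed to 0.814% and 0.777% of UMIs in T cells and to 0.734% and 0.771% in TAM/Mono. Complex V summed to 0.863% and 0.827% in T cells, 0.715% and 0.774% in TAM/Mono and 0.680% and 0.730% in pDCs, so pDCs were at the low end for the ATP synthase. Complex IV was highest in pDCs, with 0.905% and 0.888%, against 0.713% and 0.723% in DCs and 0.826% and 0.783% in T cells. This too rested on Cox6a2, without which complex IV took 0.705% and 0.688% in pDCs, the lowest of the 5 larger classes. Complex II, whose 4 genes encode succinate dehydrogenase, was the smallest, at 0.0411% to 0.0544% in the 5 larger classes. The proportion of the total also depended on what else the cells transcribed. Cytosolic ribosomal protein genes took 35.2% and 38.4% of the UMIs of T cells but 19.4% and 21.8% of those of TAM/Mono. Counted against the UMIs that remain without ribosomal protein and mitochondrial genes, nuclear members took 4.68% and 4.75% in T cells, 4.10% and 4.15% in NK cells, 4.01% and 4.09% in pDCs, 3.61% and 3.75% in DCs and 3.31% and 3.63% in TAM/Mono. On that scale T cells were highest and TAM/Mono lowest of these 5 classes in both libraries.

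The transcripts of the chain covered a narrower range between classes than genes past the same level. Over all cells, 86 members reached 50 CPM, and over the 5 larger classes their highest class was 1.43 times their lowest in the median in the library labelled Maoa WT and 1.37 times in the library labelled Maoa KO. For the 2398 genes that reached the same level the medians were 2.13 and 1.99, without matching on abundance beyond it. Genes used to cluster the cells and to name the classes were not left out of these, whereas members took no part in either. The groups are thus not on equal terms. The ratio stayed under 2 in both libraries for 77 of the 86 members (89.5%), against 972 of 2398 genes (40.5%) and 58.3% of 84 ribosomal protein genes. Among the members at this level the narrow range belonged to the nuclear ones. Nuclear members under 50 CPM are not in this count. Among those left out were Cox6a2, with ratios of 1308 and 1484, Cox4i2 (21.0 and 44.7) and Cox7a1 (10.9 and 28.7). Others left out stayed under 2, such as Ndufaf5 (1.53 and 1.60) and Ndufaf2 (1.99 and 1.60). Of 75 nuclear members 71 (94.7%) stayed under 2, but 6 of 11 mitochondrial members (54.5%) did. Ndufa3, a small subunit of complex I, had ratios of 1.07 and 1.22, and Atp5a1, the alpha subunit of the ATP synthase, 1.21 and 1.07; these genes were picked after their values were seen. Among the nuclear members of this group Cycs was over 2 in both libraries, with 2.03 and 2.46. A transcript is counted by its 3' end and carries no length scale, so levels of different genes are compared here as UMIs and not per length.

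Several promoters of the module share short motifs that bind known activators of nuclear respiratory genes. The 3 shown are those of Cox6a1, the widely expressed form of a complex IV subunit, of Cycs and of Uqcrh, the acidic hinge subunit of complex III, because these genes recur below. They are the 250 bases upstream of the RefSeq transcription start on build GRCm38.p6, read 5' to 3' on the strand of the gene, which is the minus strand for all 3. Capitals mark the NRF1 core CGCATGCG, the ETS motif CCGGAAG, the cyclic AMP response element TGACGTCA and the CCAAT box, each searched on both strands, and no marked matches overlap. The windows are chr5:115348959-115349208 for Cox6a1, chr6:50566570-50566819 for Cycs and chr4:116075071-116075320 for Uqcrh, and the last 23 bases of the Cox6a1 window lie inside the annotated gene.
Cox6a1: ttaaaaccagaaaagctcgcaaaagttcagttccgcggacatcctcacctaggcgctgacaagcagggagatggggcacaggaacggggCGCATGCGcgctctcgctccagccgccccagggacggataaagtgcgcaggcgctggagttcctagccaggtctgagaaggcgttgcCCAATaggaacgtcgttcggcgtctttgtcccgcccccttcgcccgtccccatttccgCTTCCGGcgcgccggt
Cycs: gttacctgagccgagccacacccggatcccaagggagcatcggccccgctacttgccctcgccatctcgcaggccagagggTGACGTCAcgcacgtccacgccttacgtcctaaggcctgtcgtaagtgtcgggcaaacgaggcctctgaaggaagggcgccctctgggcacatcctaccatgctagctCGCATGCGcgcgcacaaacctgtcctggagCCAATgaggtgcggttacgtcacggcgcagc
Uqcrh: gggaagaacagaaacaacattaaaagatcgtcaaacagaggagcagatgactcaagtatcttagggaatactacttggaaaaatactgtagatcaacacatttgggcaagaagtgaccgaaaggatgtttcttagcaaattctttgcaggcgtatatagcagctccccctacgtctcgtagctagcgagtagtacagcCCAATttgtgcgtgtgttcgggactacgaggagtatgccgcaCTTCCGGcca
A RefSeq promoter was matched for 73 of the 91 nuclear members, in 78 windows. The NRF1 core occurred in 9 of these windows (11.54%) and in 1.549% of all 32851 promoter windows. The ETS motif occurred in 13 (16.67%) against 6.907%, the cyclic AMP response element in 5 (6.41%) against 1.546%, the CCAAT box in 33 (42.31%) against 33.85%, the hypoxia response core ACGTG in 16 (20.51%) against 16.57% and the letters TATAAA in 6 (7.692%) against 12.37%. Members with the NRF1 core were Cox6a1, Cycs, Atp5g2, Atp5j, Atp5k, Atp5l, Ndufa8, Ndufa11 and Ndufaf4. Other windows were read in the same way and are not shown. That of Cox7a2 held none of the marked motifs, and those of Cox7a1 and Atp5g1 held only the CCAAT box. That of Atp5e held the ETS motif and the CCAAT box. The windows shown are therefore not typical of all. Such matches describe the letters of the windows and are not binding data.

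Between macrophages and T cells nearly the whole module stayed within 2-fold. A gene was called between classes when its CPM differed by at least 2-fold in the same direction in both libraries, provided that each library held 100 or more of its UMIs in the pair of classes. In TAM/Mono against T cells this held for 1 of 97 members tested and for 28% of all 8065 genes. The member called was Cox7a1, a form of a complex IV subunit found mainly in heart and skeletal muscle. Its level was low, at 14.2 and 11.6 CPM in TAM/Mono and 3.39 and 1.73 CPM in T cells, a log2 ratio of 2.05 (1.57 to 2.60) and 2.69 (1.88 to 3.75). The median log2 ratio of TAM/Mono to T cells was -0.22 and -0.05 for the nuclear members and -0.13 and -0.02 for all genes tested. Without ribosomal protein and mitochondrial genes in the total, the medians were -0.54 and -0.41 for nuclear members and -0.45 and -0.38 for all genes, so the members lay close to all genes on both scales and in both libraries. On the second total 8 members were called, against 32.7% of all genes. Cox7a1 was not called with each cell weighted equally.

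Among the 92 members with at least 100 UMIs in each of these classes and libraries, which leaves out Cox7a1, those that departed most came from several complexes. Uqcrh was lower in TAM/Mono, at 487 and 552 CPM, than in T cells, at 815 and 900 CPM, a log2 ratio of -0.74 (-0.79 to -0.70) and -0.70 (-0.76 to -0.65). The complex I assembly factors Ndufaf2 and Ndufaf4 were lower too, with log2 ratios of -0.99 and -0.68 and of -0.69 and -0.81. So were mt-Nd3 (-1.10 and -0.87) and mt-Nd2 (-0.79 and -0.72), core subunits of complex I that the mitochondrial genome encodes. The largest ratio of TAM/Mono to T cells among these 92 was that of Sdhc, a membrane anchor of succinate dehydrogenase, at 93.9 and 102 CPM in TAM/Mono and 65.2 and 68.5 CPM in T cells, a log2 ratio of 0.53 (0.39 to 0.66) and 0.57 (0.41 to 0.73). Ndufb8, an accessory subunit of complex I (0.31 and 0.51), the complex III subunits Uqcrb (0.35 and 0.42) and Uqcr11 (0.24 and 0.35) and the complex IV subunit Cox6b1 (0.23 and 0.31) followed. Complex III thus held genes at both ends, Uqcrh among the lowest and Uqcrb and Uqcr11 among the highest. The direction was the same in both libraries for all 10 genes named by this rank. The rank used the mean of both libraries, which favours such agreement, so the agreement is no support for it. Within complex II, Sdhb, the iron-sulphur subunit, had 275 and 239 CPM in T cells and 237 and 234 CPM in TAM/Mono, and Sdhd, the other anchor, 108 and 85.4 against 104 and 111 CPM.

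In 3 further pairs of classes no member was called, namely in NK cells against T cells (0 of 94, against 7.51% of 5902 genes), in DCs against T cells (0 of 97, against 14.5% of 7003) and in DCs against TAM/Mono (0 of 98, against 13.4% of 7310). The median log2 ratio of the nuclear members was -0.23 and -0.11 in NK cells against T cells, -0.16 and -0.12 in DCs against T cells and 0.03 and -0.09 in DCs against TAM/Mono. Corresponding medians over all genes were -0.06 and 0.02, -0.04 and -0.08, and 0.13 and -0.02. In DCs against T cells Cox6b2, described below, had log2 ratios of 0.80 and 2.18 and missed the limit in 1 library. Ndufa6, an accessory subunit of complex I chosen after its values were seen, came close to it, with 541 and 560 CPM in DCs and 283 and 331 CPM in T cells, a log2 ratio of 0.94 (0.84 to 1.03) and 0.76 (0.68 to 0.84). TAM/Mono had 308 and 340 CPM of this transcript and NK cells 388 and 419 CPM, so DCs were highest in both libraries.

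pDCs differed from the 4 other large classes in a nuclear subunit of complex IV and in the mitochondrial genome. Against T cells, 2 of 94 members were called (21.3% of all 5688 genes), Cox6a2 and mt-Co1, of which mt-Co1 was not called once possible doublets were left out. Against DCs the count was 5 of 89 (19.3% of all 3349 genes). The nuclear gene was Cox6a2, which encodes the form of cytochrome oxidase subunit 6A known from heart and skeletal muscle. Cox6a2 (ENSMUSG00000030785.8) lies on the minus strand at chr7:128205435-128206387 of GRCm38 and Cox6a1 (ENSMUSG00000041697.8) on the minus strand at chr5:115345642-115348981. The whole coding sequence of Cox6a2 (294 bases) and the last 294 of the 339 bases of that of Cox6a1 are shown, from the GENCODE M21 transcripts, because the contrast below rests on telling them apart. Capitals mark runs of 10 or more bases that both share, which come to 12 bases in each.
Cox6a2: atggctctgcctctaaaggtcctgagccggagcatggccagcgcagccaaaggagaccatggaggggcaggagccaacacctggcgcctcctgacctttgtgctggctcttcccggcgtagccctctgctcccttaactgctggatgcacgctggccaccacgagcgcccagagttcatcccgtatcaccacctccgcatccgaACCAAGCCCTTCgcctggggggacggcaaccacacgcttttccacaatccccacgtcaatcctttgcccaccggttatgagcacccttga
Cox6a1: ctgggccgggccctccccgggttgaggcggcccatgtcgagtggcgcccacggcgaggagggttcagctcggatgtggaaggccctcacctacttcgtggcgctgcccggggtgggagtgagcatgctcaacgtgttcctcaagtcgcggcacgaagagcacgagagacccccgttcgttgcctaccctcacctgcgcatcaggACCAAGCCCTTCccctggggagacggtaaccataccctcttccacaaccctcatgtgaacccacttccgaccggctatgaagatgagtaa
The longest stretch common to the whole transcripts was 12 bases, so a read of either gene does not match the other over its length.

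Cox6a2 reached 1999 and 1996 CPM in pDCs, from 742 and 983 UMIs, and it was under 10 CPM in the 4 other larger classes. T cells had 1.49 and 2.02 CPM, NK cells 7.85 and 1.63, TAM/Mono 4.43 and 4.24 and DCs 2.02 and 1.24 CPM. The few B cells had none in the library labelled Maoa WT and 12 UMIs in 1 cell in the library labelled Maoa KO. The log2 ratio of pDCs to T cells was 10.35 (9.72 to 11.15) and 9.90 (9.20 to 10.83), and to DCs 9.82 (8.72 to 11.58) and 10.54 (9.52 to 12.10). In pDCs, Cox6a2 made up 79.3% (76.5 to 81.8) and 78.8% (76.4 to 81.0) of the UMIs of Cox6a1 and Cox6a2 together, compared with 0.259% and 0.390% in T cells. Cox6a1 itself had 523 and 538 CPM in pDCs, against 488 and 502 CPM in NK cells, 573 and 515 CPM in T cells, 549 and 577 CPM in DCs and 611 and 646 CPM in TAM/Mono. The muscle-linked form thus stood beside the common form, which lay below DCs and TAM/Mono and above NK cells in both libraries, and the sum of complex IV in pDCs given above includes it. Cox6a2 is a listed pDC marker in the marker set used, but it took no part in the clustering or in naming the class. Siglech, a surface receptor of pDCs, stood at 1884 and 1876 CPM in them.

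The Cox6a2 signal was spread over most pDCs. A UMI of the gene was found in 45 of 48 cells (93.8%) and in 62 of 69 cells (89.9%). The quartiles of the UMIs per cell were 8.75, 16 and 23 in the library labelled Maoa WT, with a maximum of 33, and 7, 15 and 19 in the library labelled Maoa KO, with a maximum of 47. At an equal depth of 5600 UMIs for each pDC, where 3 and 9 cells were too shallow to enter, it was found in 91.1% (78.8 to 97.5) and 83.3% (71.5 to 91.7). At a common depth of 2000 UMIs per cell the shares were 85.4% and 81.2% of pDCs, 0.222% and 0.469% of T cells and 1.03% and 0.602% of TAM/Mono. The 10 pDCs without a Cox6a2 UMI all had Siglech. Outside pDCs 90 and 81 UMIs were spread over 67 and 56 cells, of which 1 and 2 held 5 or more. pDCs carried 89.2% and 92.4% of all Cox6a2 UMIs although they were few.

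**Figure D2:**
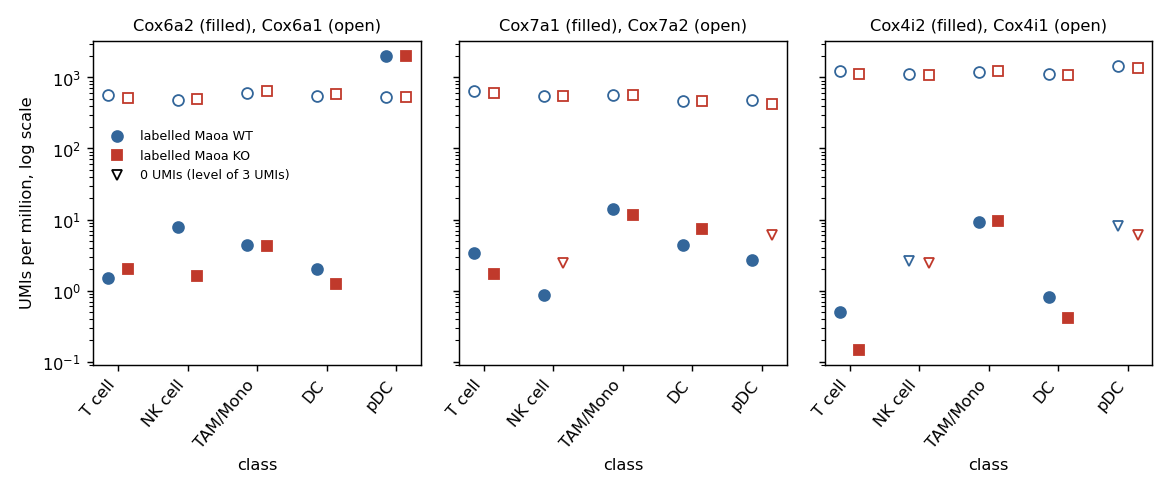
Level (CPM, log scale on the y axis) of 3 tissue-linked complex IV members (filled) and of their common forms (open) in each immune class (x axis), for both libraries, where a triangle marks 0 UMIs and is drawn at the level of 3 UMIs. Cox6a2 stands at 1999 and 1996 CPM in pDCs and under 10 CPM in the other 4 classes, and Cox7a1 and Cox4i2 are highest in TAM/Mono.

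The other tissue- or hypoxia-linked forms were low in every class. Cox4i2, a form of subunit 4 known from lung and from oxygen sensing, had 117 and 89 UMIs in all, of which 93.2% and 96.6% fell in TAM/Mono. There it reached 9.11 (7.48 to 11) and 9.60 (7.68 to 11.9) CPM beside 1191 and 1243 CPM of the common form Cox4i1. In T cells it had 0.496 and 0.144 CPM, and NK cells and pDCs had no UMI of it, which allows up to 2.62 and 2.44 CPM in NK cells and 8.08 and 6.09 CPM in pDCs (3 counts of each total). Cox7a1 made up 2.42% and 2.01% of Cox7a1 and Cox7a2 together in TAM/Mono. A UMI of Cox7a1 was found in 13.4% and 10.6% of TAM/Mono, and in 7.70% and 4.37% of them at 5700 UMIs per cell. At 2000 UMIs per cell it was 2.99% and 1.44%, so these shares follow the depth. The common forms dominated in T cells as well, with 637 and 595 CPM of Cox7a2, 1112 and 1066 CPM of Cox8a and 460 and 486 CPM of Ndufa4 there.

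Ndufa4l2, a hypoxia-induced relative of Ndufa4, was found in TAM/Mono only, with 16 UMIs in 4 cells and 7 UMIs in 2 cells, and Cox8b, a muscle form, had 2 UMIs in all. Cox6b2, a form known from testis, was highest in DCs, at 10.5 (6.85 to 15.4) and 17.2 (13.7 to 21.3) CPM, against 6.12 and 3.75 CPM in T cells and 6.52 and 7.93 CPM in TAM/Mono. Within TAM/Mono, cluster 5, led by Serpinb10, Hp and Ace, had 20.9 and 18.2 CPM of it. Atp5g1, Atp5g2 and Atp5g3 encode the same mature ring subunit of the ATP synthase. T cells had 410 and 411, 728 and 677, and 295 and 304 CPM of them, and TAM/Mono 441 and 471, 437 and 487, and 206 and 216 CPM. In T cells Atp5g2 was the most abundant of the 3 in both libraries, and in TAM/Mono Atp5g1 and Atp5g2 were close. Atp5g1 and Atp5g2 share stretches of up to 21 bases and Ndufa4l2 and Ndufa4 of up to 28, and processed pseudogenes and nuclear copies of mitochondrial genes exist for many members, so that how reads were shared between such copies could alter single levels.

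Cycs, the mobile electron carrier that also triggers the apoptosome, was lowest in pDCs. It had 253 and 187 CPM in pDCs, 315 and 305 in NK cells, 427 and 377 in T cells, 504 and 461 in TAM/Mono and 517 and 422 in DCs. The log2 ratio of pDCs to DCs was -1.02 (-1.35 to -0.73) and -1.17 (-1.49 to -0.88). The order of TAM/Mono and DCs turned between the libraries, whereas pDCs, NK cells and T cells kept theirs.

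All 12 mitochondrial members tested were higher in pDCs than in DCs in both libraries, and 10 of 12 were higher than in T cells, beside 1271 of 3349 and 2203 of 5688 of all genes. Medians of the log2 ratio were 0.93 and 0.92 against DCs and 0.62 and 0.67 against T cells, while those of the nuclear members were -0.01 in both libraries and -0.18 and -0.13. The gene mt-Co1, the catalytic core of complex IV, had 6017 and 6194 CPM in pDCs, 2465 and 2828 in T cells, 2599 and 2782 in NK cells, 2938 and 2961 in TAM/Mono and 2389 and 2488 in DCs. Its log2 ratio was 1.29 (1.22 to 1.35) and 1.13 (1.08 to 1.19) against T cells and 1.33 (1.26 to 1.40) and 1.32 (1.26 to 1.37) against DCs. Also called against DCs were the complex I subunits mt-Nd4, with 1388 and 1584 CPM against 672 and 753, and mt-Nd5, with 237 and 264 CPM against 90.0 and 88.4. The genes mt-Atp6 and mt-Co3, the most abundant members over all cells together with mt-Co1, had 6572 and 7290 and 4810 and 5312 CPM in pDCs, and 3779 and 4301 and 3039 and 3387 CPM in T cells.

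The ratio of mitochondrial to nuclear member UMIs does not depend on the rest of the transcriptome. It was 0.958 (0.932 to 0.985) and 1.05 (1.02 to 1.07) in pDCs, against 0.533 and 0.628 in T cells, 0.582 and 0.628 in NK cells, 0.549 and 0.563 in TAM/Mono and 0.521 and 0.571 in DCs. The 7 and 25 B cells also stood high, at 0.968 (0.879 to 1.07) and 1.15 (1.09 to 1.21). In this class B cell markers summed to 0.371% and 0.460% and DC markers to 0.274% and 0.534%, most of the latter from H2-Aa (0.220% and 0.407%), and T cell markers to 0.0134% and 0.142%. The part of other cells in the B cell values was not tested. pDCs therefore held about as many mitochondrial as nuclear transcripts of the chain, and without Cox6a2 their ratio was 1.03 and 1.13. The ratio moved with depth in T cells. T cells below the median UMI count had 0.686 and 0.931, and those at or above it 0.496 and 0.561. pDCs had 0.961 and 1.16 below their median and 0.956 and 0.963 at or above it, so the deeper pDCs of both libraries lay above the deeper T cells. In pDCs 1 and 6 cells had more than 4% mitochondrial UMIs, and the part of cell quality in the ratio was not tested.

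**Figure D3:**
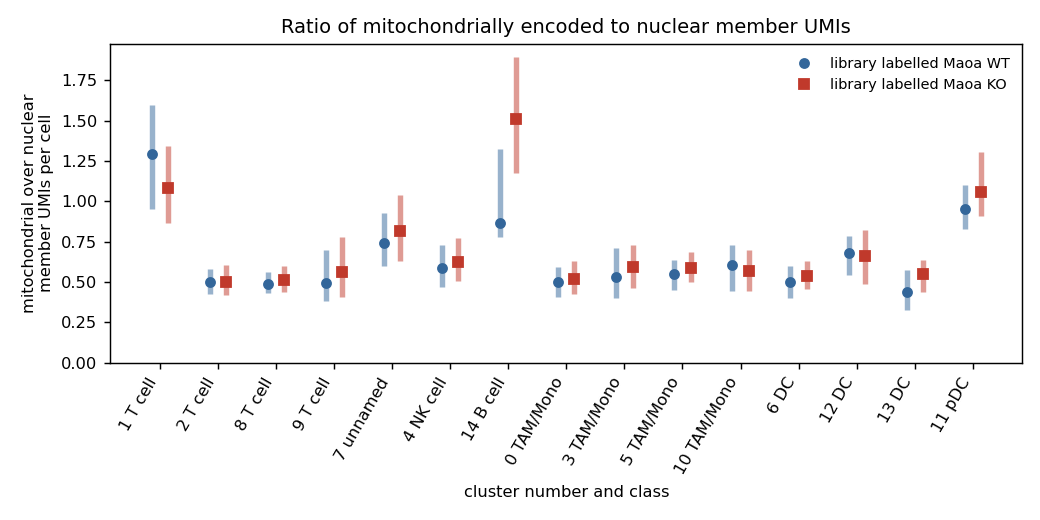
Ratio of mitochondrial to nuclear member UMIs per cell (y axis) in each cluster (x axis, cluster number and class), for both libraries, as the median over cells (marker) and the interquartile range (bar). The medians of cluster 1 of the T cells (1.29 and 1.08) and of the pDCs (0.95 and 1.05) stand above those of T cell clusters 2, 8 and 9, which lie between 0.485 and 0.558.

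The mixture of mitochondrial transcripts also differed by class. mt-Co1 made up 22.4% and 20.9% of mitochondrial UMIs in pDCs and 20.4% and 18.9% in TAM/Mono, but 15.6% and 15.9% in T cells. mt-Nd2 made up 3.47% and 3.83% in T cells and 2.21% and 2.66% in TAM/Mono. The mitochondrial genome is transcribed as long precursors that are cut into single messengers, so these proportions are those of transcripts after processing and decay. The light-strand gene mt-Nd6 had 4.24 to 6.50 CPM in the 5 larger classes, and mt-Atp8 (37.5 to 106 CPM) and mt-Nd4l (32.8 to 78.1 CPM), which overlap mt-Atp6 and mt-Nd4 in bicistronic messengers and cannot be told apart from them with certainty, were low. mt-Cytb, the only mitochondrial member of complex III, had 1546 and 1684 CPM in T cells, 1104 and 1237 in TAM/Mono and 2126 and 2293 in pDCs. For mt-Co2 and mt-Nd1 the values in pDCs were 2746 and 2904 and 2059 and 2656 CPM, and in T cells 1606 and 1809 and 1485 and 1646 CPM.

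Within the T cells the nuclear members were lower and the mitochondrial members higher in cluster 1 than in the clusters compared with it. The pairs of clusters compared were chosen after the clusters had been seen. Cluster 1 (155 and 414 cells) was led by Dapl1, Nsg2, Lef1, Igfbp4 and Tcf7, the last of which is known from naive and memory T cells, and cluster 2 (350 and 177 cells) by Gldc, Adgrg1, Serpine2 and Prf1, the last of which encodes perforin. Cluster 8 was led by the cell cycle genes Hist1h2ap, Nusap1, Rrm2 and Cdk1 and cluster 9 by Foxp3, Tnfrsf4 and Ctla4, genes of regulatory T cells. Nuclear members took 1.91% and 2.25% of UMIs in cluster 1, 3.04% and 3.13% in cluster 2, 3.13% and 3.33% in cluster 8 and 2.63% and 2.67% in cluster 9. The mitochondrial to nuclear ratio was highest of these 4 in cluster 1, at 1.14 and 0.951 in cluster 1, 0.499 and 0.508 in cluster 2, 0.506 and 0.521 in cluster 8 and 0.507 and 0.554 in cluster 9. Cells of cluster 1 were shallow, with a median of 4691 and 4588 UMIs against 12318 and 8946 in cluster 2. In the cells of cluster 1 at or above its median depth the ratio was 0.985 and 0.867, above that of cluster 2.

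In cluster 2 against cluster 1, 70 of 79 nuclear members were higher in both libraries and all 12 mitochondrial members tested were lower in both, beside 2396 higher and 691 lower of all 3591 genes. The median log2 ratio was 0.76 and 0.55 for the nuclear members and -0.51 and -0.43 for the mitochondrial ones, beside 0.52 and 0.35 for all 3591 genes. On the total without ribosomal protein and mitochondrial genes, which took more of the UMIs in cluster 1 (ribosomal protein genes 51.2% and 48.5%, against 35.3% and 34.8%), the medians were 0.32 and 0.18 for nuclear members, -0.95 and -0.80 for mitochondrial members and 0.08 and -0.02 for all genes. The nuclear members therefore stood above all genes on either scale. Of 91 members, 4 were called, all higher (13.6% of all genes were called). On the total without ribosomal protein and mitochondrial genes 1 member was called, mt-Nd5, which was lower in cluster 2, against 11.1% of all genes. Cox5a, a nuclear subunit of complex IV, had 269 and 318 CPM in cluster 1 and 662 and 661 CPM in cluster 2, a log2 ratio of 1.3 (1.11 to 1.5) and 1.06 (0.92 to 1.19). The complex I subunits Ndufb8 (1.34 and 1.0) and Ndufb7 (1.06 and 1.13) and Atp5f1, a stalk subunit of the ATP synthase (1.08 and 1.01), were the others.

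The cycling cluster stayed close to cluster 2. No member was called between clusters 8 and 2 (0 of 92, against 3.63% of 3748 genes), and the medians were 0.07 and 0.10 for nuclear members, 0.14 and 0.22 for mitochondrial members and 0.07 and 0.08 for all genes. Cluster 9 against cluster 1 also showed a lower mitochondrial share, with 12 of 12 mitochondrial members lower in both libraries, beside 287 of all 2053 genes, and a median of -0.75 and -0.60. Its nuclear members were higher in both libraries for 60 of 75, with a median of 0.50 and 0.24, which lay below the 0.60 and 0.48 of all genes, unlike in cluster 2. The member called there was mt-Nd2 (1 of 87, against 15% of 2053 genes), which had 356 and 433 CPM in cluster 9 and 860 and 873 CPM in cluster 1, a log2 ratio of -1.27 (-1.45 to -1.09) and -1.01 (-1.16 to -0.86). Clusters 2 and 9 share cluster 1 as their reference. The unnamed cluster 7 lay between, with 2.38% and 2.52% of UMIs from nuclear members and a ratio of 0.732 and 0.793.

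**Figure D4:**
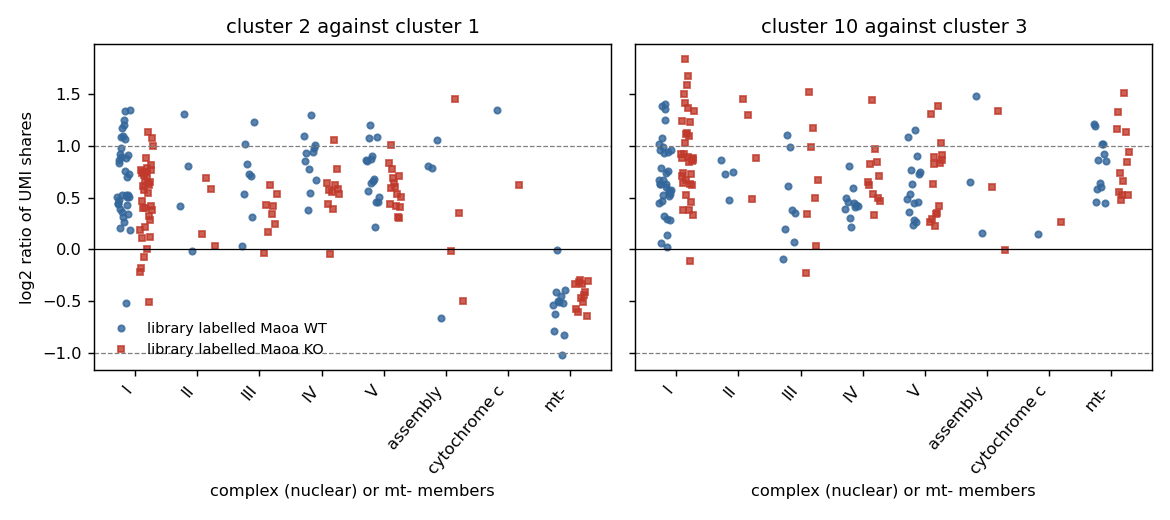
Log2 ratio of the shares of UMIs (y axes) of each member tested, by complex and with the mitochondrial members apart (x axes), for T cell cluster 2 against cluster 1 (left) and TAM/Mono cluster 10 against cluster 3 (right), in both libraries; dashed lines mark a 2-fold difference. On the left the nuclear medians are 0.76 and 0.55 and the mitochondrial members lie below 0, and on the right both groups lie above 0 in the median.

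Within TAM/Mono the module was higher in cluster 10 than in cluster 3. Cluster 10 (143 and 131 cells) was led by Ccl8, Gas6 and C1qa, and cluster 3 (362 and 133 cells) by Inhba and Cxcl3. Nuclear members took 3.02% and 3.28% of UMIs in cluster 10 and 2.11% and 2.04% in cluster 3, and 3.91% and 4.28% against 2.56% and 2.58% of the UMIs without ribosomal protein and mitochondrial genes. Mitochondrial members took 1.83% and 1.93% against 1.15% and 1.19%, so both genomes were higher and their ratio was alike, 0.607 and 0.589 in cluster 10 and 0.547 and 0.581 in cluster 3. Cells of cluster 10 were the deeper ones, with a median of 19880 and 19861 UMIs against 9202 and 7586, and the part of depth was not tested. Of 77 nuclear members 74 were higher in cluster 10 in both libraries, as were 12 of 12 mitochondrial members, beside 2238 of all 3928 genes. The median log2 ratio was 0.57 and 0.84 for nuclear members, 0.85 and 0.79 for mitochondrial members and 0.22 and 0.30 for all genes.

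Between these clusters 13 of 89 members were called, all higher in cluster 10, while 17.6% of all genes were called. Of these, 6 belong to nuclear complex I or its assembly. Ndufa12, which joins complex I late, had 114 and 105 CPM in cluster 3 and 293 and 336 CPM in cluster 10, a log2 ratio of 1.36 (1.19 to 1.53) and 1.68 (1.40 to 1.98). Ndufc1 had 140 and 136 CPM against 365 and 385 CPM (1.38 and 1.5), and the assembly factor Ndufaf2, which binds the same late intermediate as Ndufa12, had 10.5 and 13.8 against 29.7 and 35.7 CPM (1.48 and 1.34). Ndufs5, Ndufs7 and Ndufab1, the acyl carrier protein, were the others. Uqcr11 of complex III had 210 and 187 CPM in cluster 3 and 452 and 540 CPM in cluster 10, a log2 ratio of 1.11 and 1.52. The ring subunit genes Atp5g1 (1.16 and 1.39) and Atp5g3 (1.08 and 1.31) stood for complex V. The mitochondrial genes called were mt-Nd1, at 745 and 823 against 1719 and 1850 CPM, mt-Nd2 (1.19 and 1.32), mt-Nd3 (1.02 and 1.51) and mt-Nd4l (1.02 and 1.14), all of them complex I. mt-Co1 was less different, at 2762 and 2628 CPM in cluster 3 and 3783 and 3870 CPM in cluster 10, and it made up 23.9% and 22.2% of the mitochondrial UMIs of cluster 3. Uqcrh did not follow the rest and had 446 and 505 CPM in cluster 3 and 416 and 431 CPM in cluster 10.

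Cluster 5, led by Serpinb10, Hp and Ace, genes of monocytes, was compared with cluster 10 as well, which thus enters both comparisons. Here 7 of 91 members were called (19.8% of 4128 genes), 6 of them lower. Ndufc1 had 172 and 148 CPM (log2 ratio -1.09 and -1.38) and Ndufab1 103 and 91.6 CPM (-1.32 and -1.57) in cluster 5, and Ndufa12, Ndufv3, Ndufaf2 and Ndufaf4 were also lower. Of these, Ndufc1, Ndufab1, Ndufa12 and Ndufaf2 were also called between clusters 10 and 3. With cluster 10 in both comparisons and no overlap of all genes given, this overlap is no separate result. The member called higher was Cox7a2l, listed above among the genes of assembly or accessory proteins. It had 611 and 728 CPM in cluster 5 and 280 and 313 CPM in cluster 10, a log2 ratio of 1.12 (0.98 to 1.27) and 1.22 (1.09 to 1.35). Cox7a2l was also high in cluster 1 of the T cells, at 810 and 751 CPM, and in pDCs, at 698 and 638 CPM. Cox4i2 and Cox7a1 were highest in cluster 10 among the TAM/Mono clusters, at 21.8 and 19.0 CPM and at 22.7 and 23.4 CPM. Cluster 3 had 4.44 and 9.18 CPM of Cox4i2 and 17.2 and 14.7 CPM of Cox7a1, and cluster 0, led by Dmkn, Vcan and Clec5a, had 5.86 and 7.43 and 8.30 and 6.83 CPM. As a share of Cox7a1 and Cox7a2 together, Cox7a1 was as high in cluster 3, at 3.41% and 3.53%, as in cluster 10, at 3.32% and 3.15%.

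Between the libraries the module hardly differed within a class. A gene was called between libraries at a difference of at least 1.5-fold with a counting interval that leaves out no difference, provided that the class held 100 or more of its UMIs. That held for 1 of 98 members in T cells (10.6% of all genes), 1 of 87 in NK cells (7.11%), 0 of 99 in TAM/Mono (9.11%), 2 of 95 in DCs (9.3%) and 3 of 80 in pDCs (6.01%). With 1 library per label these counts compare the libraries and not the genotypes. The median log2 ratio of the library labelled Maoa KO to that labelled Maoa WT was -0.09, -0.01, 0.09, -0.03 and 0.04 for the nuclear members of these classes in that order, and -0.07, 0.00, 0.06, -0.09 and 0.00 for all genes. For the mitochondrial members it was 0.18, 0.13, 0.17, 0.16 and 0.15. The mitochondrial share was thus somewhat higher in the library labelled Maoa KO in each of the 5 classes, and that library was also the shallower one. When the clusters of a class were weighted alike in both libraries, the median of the mitochondrial members was 0.07 in T cells, 0.06 in TAM/Mono and 0.16 in DCs, and that of the nuclear members turned, to 0.10 in T cells and -0.03 in TAM/Mono.

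The few members called between the libraries are listed next. Their share lay below that of all genes in every class, as given above, so which members were called is no result about the module. Cox6b2 was lower in the library labelled Maoa KO in T cells, at 3.75 against 6.12 CPM (log2 ratio -0.69, -1.41 to -0.04), and higher in DCs, at 17.2 against 10.5 CPM (0.69, 0.06 to 1.41). Both fell under the minimum of UMIs when possible doublets were left out, with 29 and 11 UMIs in T cells and 17 and 57 in DCs, so no call was possible there. The share of Cox6b2 among Cox6b1 and Cox6b2 was then 1.02% and 0.466% in T cells, against 0.860% and 0.559% with all cells, and 1.60% and 2.35% in DCs, against 1.43% and 2.34%. With the clusters weighted alike the T cell call ended. In NK cells mt-Nd4l (0.59, 0.02 to 1.19) and in DCs mt-Atp8 (0.66, 0.32 to 1.02) were higher in the library labelled Maoa KO. In pDCs, with 48 and 69 cells, mt-Nd3 (0.60, 0.17 to 1.04) and Ndufa8 (0.60, 0.07 to 1.16) were higher and Ndufab1 (-0.70, -1.28 to -0.13) was lower. Without possible doublets the calls of mt-Nd4l, Ndufa8 and Ndufab1 ended, and with cells weighted alike those of mt-Nd4l, mt-Atp8 and Ndufa8 did. No member was called in the same direction in 3 or more of the 4 largest classes. The matching share of all genes is not given, so this count is no result about the members. In TAM/Mono, the class on which the study centred, the members ran within 1.5-fold of each other or had intervals that reached no difference. Cox6a2 in pDCs differed by -0.00 (-0.14 to 0.14).

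**Figure D5:**
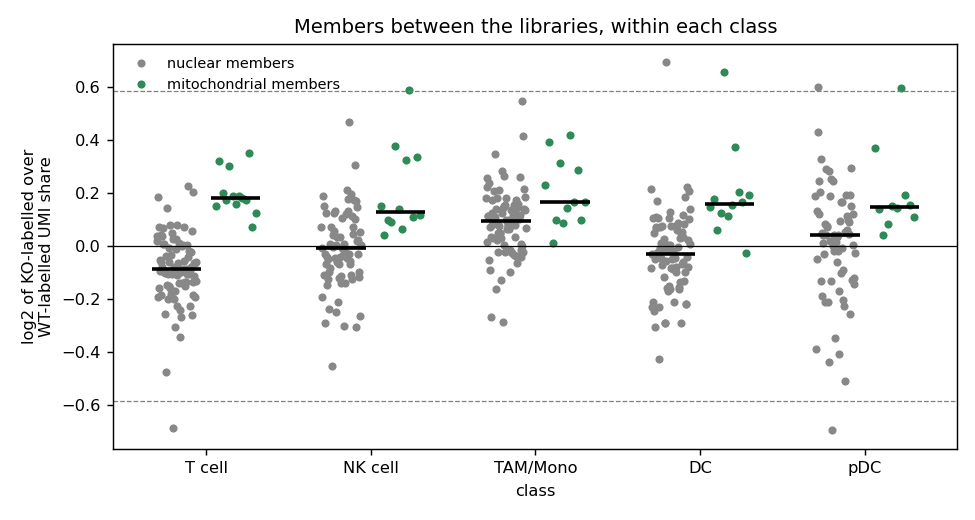
Log2 ratio of the library labelled Maoa KO to the library labelled Maoa WT (y axis) for each member tested in each immune class (x axis), with medians as bars and a 1.5-fold difference as dashed lines. The mitochondrial medians lie between 0.13 and 0.18 in all 5 classes and the nuclear medians between -0.09 and 0.09.

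Other genes of energy metabolism were read from lists of the tricarboxylic acid cycle (14 genes), further assembly factors of the complexes (39), transcriptional regulators and mitochondrial DNA maintenance (15, of which 14 were in the table), carriers and pores (9) and glycolysis (15). Glycolysis held the most calls of these lists in pDCs and in the T cell clusters. In pDCs against T cells 10 of 15 glycolytic genes were called lower and none higher (21.3% of all genes were called), with a median log2 ratio of -1.38 and -1.11, and the list took 0.436% and 0.414% of UMIs in pDCs against 1.21% and 0.919% in T cells. In TAM/Mono against T cells the glucose transporter Slc2a1, the hexokinase Hk2 and Pgam1 were called higher (3 of 15, against 28% of all genes). In cluster 2 against cluster 1 of the T cells 9 of 15 were higher and Pdk1, a kinase that restrains pyruvate oxidation, was lower (against 13.6% of all genes). Cluster 10 against cluster 3 of TAM/Mono had 4 of 15 lower (Slc2a1, Hk1, Pfkp and Eno1, against 17.6% of all genes), a share not far from that of all genes, with glycolysis at 1.27% and 1.26% of UMIs against 2.12% and 2.13%. Cluster 5 against cluster 10 had 9 of 15 lower (against 19.8%), and its list took 0.568% and 0.525%. Of the TAM/Mono clusters 3, 5 and 10, cluster 3 thus had the largest share of glycolytic transcripts. Its share of oxidative phosphorylation transcripts lay below that of cluster 10.

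The lists nearer to the chain held few calls, at shares near or below those of all genes, so the counts are no result about the lists. Of all genes 28% were called in TAM/Mono and 21.3% in pDCs against T cells, 17.6% in cluster 10 against cluster 3, and 13.6% and 15% in clusters 2 and 9 against cluster 1. Of the tricarboxylic acid cycle genes, Idh2, the mitochondrial NADP-linked isocitrate dehydrogenase, was called higher in TAM/Mono and in pDCs than in T cells (1 of 14 each), and Idh2, Suclg1 and Fh1 were higher in cluster 10 than in cluster 3 (3 of 13). Among assembly factors Cox17, Cox18 and Higd1a were lower in pDCs than in T cells (3 of 25), and in cluster 10 against cluster 3 Coa6 and Sdhaf4 were higher and Higd1a lower (3 of 16). No regulator was called in TAM/Mono, NK cells or DCs against T cells (0 of 10, 0 of 8 and 0 of 8), and Gabpa, which encodes a subunit of the ETS-type activator NRF2, and Polg, the mitochondrial DNA polymerase, were lower in pDCs than in T cells (2 of 8). Of the carriers, Slc25a4, an adenine nucleotide translocase, was lower in TAM/Mono than in T cells (1 of 9), and Ucp2, an inner membrane carrier, was higher in clusters 2 and 9 than in cluster 1 (1 of 9 each).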

How the data were processed

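Live CD45.2+ cells from B16-OVA tumours were profiled by droplet sequencing in 1 library per genotype, each from 10 combined tumours. Per the labels and the study's methods, the authors used Cell Ranger with mm10 for alignment and counting, aggregated the libraries and set limits of 300 UMIs, 100 genes and 5% mitochondrial expression per cell. All 5022 cells of the deposited table met these limits. The deposited values were the natural log of 1 plus the UMIs of a gene scaled to 10000 per cell, although the table is described as raw counts. Whole UMIs were recovered by exponentiating each value, subtracting 1 and dividing by the smallest nonzero value of the cell, and 100% of nonzero values came out within 0.01 of a whole number. The planned unit was counts, and the recovered UMIs were summed over cells.

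Cells were clustered with Seurat 5.3.0 in R 4.3.3 from 598 variable genes without the members, with 13 principal components at a resolution of 0.8, and clusters were named from markers detected in at least 10% of their cells, with Cox6a2 unused. No doublet caller was run. As an alternative, cells with at least 3 UMIs of Cd3 genes and 5 of myeloid genes were left out as possible doublets (1128 cells). These are fixed counts, which deeper cells reach more easily. The rule left 1152 of 1752 T cells, 1588 of 1800 TAM/Mono and 112 of 117 pDCs. Results that change under it may follow depth as well as doublets, and this was not tested. Sums, intervals and figures were made in Python 3.11.15 with numpy 2.4.6, scipy 1.17.1 and matplotlib 3.10.9, with 0.5 added to counts in log2 ratios, and the scripts were tested on simulated data. Coordinates and coding sequences come from GENCODE M21 on GRCm38, in which 102 members were matched, and promoters from RefSeq.

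The members, gene lists and tests were chosen with earlier results of these data known, and the cluster pairs after the clusters had been seen. Members named are all mitochondrial members, the 2 most abundant of each complex, those called between classes or clusters, the isoform pairs, those called between the libraries in the same direction in at least 3 of the 4 large classes (none), and the 5 with the largest and the 5 with the smallest ratio of TAM/Mono to T cells among the 92 with at least 100 UMIs in each class and library. A few others were named after their values were seen, for a promoter motif or as other members of a complex or list. Sums without Cox6a2 were added after seeing the data. Alternatives were other resolutions and component numbers, members kept for clustering, equal weight per cell, classes from a few defining genes, totals without ribosomal protein and mitochondrial genes, and minimums of 20 and 300 UMIs.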

Additional observations from a re-analysis of the deposited data

Results flagged for a closer look

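Cox6b2 was flagged because the library labelled Maoa KO differed from the library labelled Maoa WT in opposite directions in different classes. The log2 ratio was 0.69 in DCs, from 83 and 26 UMIs, and -0.69 in T cells, from 26 and 74 UMIs. Each class is 1 library per label, so the difference between the classes was not tested.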

How the results depend on the processing

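Of the alternative values, 107 kept their direction and size, 63 moved and 10 reversed. No paired analysis was possible because each genotype was 1 library, and leaving out a replicate was not possible for the same reason. The alternative with mitochondrial ribosomal RNAs was not run, as no such gene was among those analysed. Depth limits the pDC and B cell values and all genes under about 10 CPM, and the causes of the changes below were not tested.

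Members called in TAM/Mono against T cells numbered 1, but 2 without possible doublets, 0 with cells weighted alike and with classes from defining genes, 8 on the total without ribosomal protein and mitochondrial genes, 3 with a minimum of 20 UMIs and 0 with 300. In DCs against T cells 0 became 1 at resolutions of 0.4 and 1.2, with 20 components and on the reduced total. In pDCs against T cells 2 became 1 without possible doublets, with classes from defining genes and on the reduced total, and in DCs against TAM/Mono 0 became 2 with a minimum of 20 UMIs. In cluster 2 against cluster 1, 4 became 1 on the reduced total. Between the libraries, 1 in T cells became 2 with a minimum of 20 UMIs and with cells weighted alike, and 0 without possible doublets, without cells rich in melanoma UMIs, on the reduced total and with clusters weighted alike. In NK cells 1 became 0 without possible doublets and with cells weighted alike. In TAM/Mono 0 became 1 with cells weighted alike and on the reduced total. In DCs 2 became 1 without possible doublets and with cells weighted alike, and in pDCs 3 became 5 with a minimum of 20 UMIs and 1 without possible doublets.

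The log2 ratio of pDCs to TAM/Mono in the mitochondrial to nuclear ratio was 0.80 and 0.89, and 0.84 and 0.96 without possible doublets, with 0.93 in the library labelled Maoa KO from defining genes. That of T cells to TAM/Mono was -0.043 in the library labelled Maoa WT. It was -0.025 at resolution 0.4, -0.027 with 20 components and -0.019 with cluster 7 counted as T cells, and it reversed to 0.0081 with members kept for clustering, 0.14 without possible doublets, 0.17 with cells weighted alike, 0.19 with defining genes and 0.018 without cluster 8. In the library labelled Maoa KO it was 0.16, and 0.19, 0.20 and 0.20 at those first 3 settings, then 0.25, 0.37, 0.40, 0.45 and 0.27, and 0.18 without melanoma-rich cells.

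The log2 ratio of TAM/Mono to T cells in the nuclear share was -0.18 in the library labelled Maoa WT. It was -0.16 at resolution 0.4, -0.17 at 1.2, -0.16 with 20 components, -0.15 with members kept, -0.069 without possible doublets, -0.13 with cells weighted alike, -0.063 with defining genes, -0.50 on the reduced total, -0.16 with cluster 7 and -0.11 without cluster 8. In the library labelled Maoa KO it was -0.032, and -0.012 at resolution 0.4, -0.013 with 20 components, -0.39 on the reduced total, -0.0055 without melanoma-rich cells and -0.0088 with cluster 7. It reversed to 0.014 with members kept, 0.099 without possible doublets, 0.098 with cells weighted alike, 0.18 with defining genes and 0.062 without cluster 8. The share of TAM/Mono with a Cox7a1 UMI was 7.70% and 4.37%, and 2.99% and 1.44% at 2000 UMIs per cell and 13.4% and 10.6% without thinning.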
